A study of Mus musculus with 10 samples.

Results

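The genes described here are the transcription factor NRF2 (gene Nfe2l2) and 9 genes of the antioxidant programme it is known to control or that use glutathione: Nqo1, Hmox1, Gclc, Gclm, Txnrd1, Srxn1, Gsr, G6pdx and Gpx4. They were chosen by symbol, as the rows of the deposited count table whose Ensembl identifier maps to one of these 10 names, out of 55335 rows. All 10 were found once each, and all 10 were among the 16167 genes with enough counts to be tested. RNA came from 10 whole mammary tumours in the FVB background, grown from Wap-Myc mammary epithelial cells. In this model the Wap promoter, active in the mammary epithelium in pregnancy and lactation, drives the Myc oncogene. The cells of every tumour, controls included, had been transduced with the lentivirus pIND21-HPN at a multiplicity of 10 and placed in the fat pads of hosts aged 3 weeks. The hosts of 5 tumours (DOX_pos in the labels, DOX here) received doxycycline at 2 mg/ml in 5% sucrose from 3 days after transplantation, to induce hepsin, a cell-surface serine protease. The hosts of the other 5 (DOX_neg in the labels, no_DOX here) received sugar water. Myc was induced from 8 weeks of age by 2 pregnancies, and each tumour was collected once it measured 1 cm across. Both groups carried the construct, so effects of doxycycline itself and of hepsin cannot be told apart, and it is not stated whether hosts carried more than 1 of these tumours.

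NRF2 is held at a low level in resting cells by KEAP1, an adaptor that presents it to a CUL3 ubiquitin ligase for degradation. Oxidants and electrophiles modify KEAP1, NRF2 accumulates and, paired with a small MAF protein, binds antioxidant response elements near genes for glutathione synthesis, quinone and heme breakdown, thioredoxin reduction and NADPH supply. NRF2 is controlled mainly at the level of the protein, so its transcript is not a direct reading of its activity. Its targets are usually read as a group for that reason.

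The element's core, TGACNNNGC, was searched on both strands of RefSeq start-site windows (GRCm38.p6, 250 bases before to 50 bases after a start), to show which members hold these letters close to a start. Of the 10 members, 7 had a window (12 windows in all, since Txnrd1 and Gpx4 have several starts), and 5 windows of 5 genes held a match, against 12.4% of all 32851 windows. The matches are printed with 10 bases on each side, on the strand that reads the core forwards, with the core in capitals. The position given is that of the core's most upstream base in the direction of the gene, whichever strand is printed, and negative values lie before the start. No match fell in the windows of Nqo1 or Gpx4, which says only that these letters are not in those windows. Hmox1, Gclc and Gsr had none in the table.
Nfe2l2 (chr2:75704885-75704913, minus strand, core at -240 from the start): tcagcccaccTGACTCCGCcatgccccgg
Gclm (chr3:122245413-122245441, minus strand, core at -134 from the start): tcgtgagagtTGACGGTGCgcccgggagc
Txnrd1 (chr10:82859104-82859132, minus strand, core at -92 from the start): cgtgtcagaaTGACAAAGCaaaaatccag
G6pdx (chrX:74428919-74428947, plus strand, core at -57 from the start): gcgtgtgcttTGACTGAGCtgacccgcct
Srxn1 (chr2:152105542-152105570, minus strand, core at 29 from the start): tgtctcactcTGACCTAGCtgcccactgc

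Gclm, whose transcript varied most closely with that of Txnrd1 over the tumours, is shown with the whole 250 bases before its start, on the plus strand, where the core appears as its reverse complement in capitals.
Gclm (chr3:122245307-122245556, plus strand): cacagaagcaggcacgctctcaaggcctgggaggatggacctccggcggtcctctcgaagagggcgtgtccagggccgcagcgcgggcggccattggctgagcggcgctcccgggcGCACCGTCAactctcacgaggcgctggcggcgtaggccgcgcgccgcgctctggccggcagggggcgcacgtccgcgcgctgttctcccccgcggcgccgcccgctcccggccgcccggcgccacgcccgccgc

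The comparison asked whether the NRF2 programme differed between tumours with and without doxycycline, and no member was separated from the spread between tumours. Doxycycline tumours had higher means for 3 of the 10 genes and lower means for 7. The median of the 10 log2 fold changes was -0.12, against 0.00244 over all tested genes. With edgeR's quasi-likelihood test, 0 of 10 passed an adjusted p of 0.05, where 0% of all tested genes passed. At an unadjusted p under 0.05 there were also 0 of 10 members, against 16.0% of all tested genes. After adjustment DESeq2 called 0 of the 10, where it called 1.99% of all tested genes. Voom also called 0 of the 10, where it called 4.79% of all tested genes. With voom 6 members had an unadjusted p under 0.05, where 27.2% of all tested genes did. Of these, Nqo1 was higher, and Gclc, Gclm, Txnrd1, Gsr and G6pdx were lower. Their voom p-values ran from 0.0086 to 0.0318 unadjusted and from 0.0787 to 0.145 adjusted. For every member the values of the groups overlapped, while the groups did not overlap in 2.94% of all tested genes. The 95% intervals bound the differences: all 10 lay within a 2-fold change in either direction and 8 within a 1.5-fold change, the exceptions being Nqo1 and Hmox1.

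**Figure D1:**
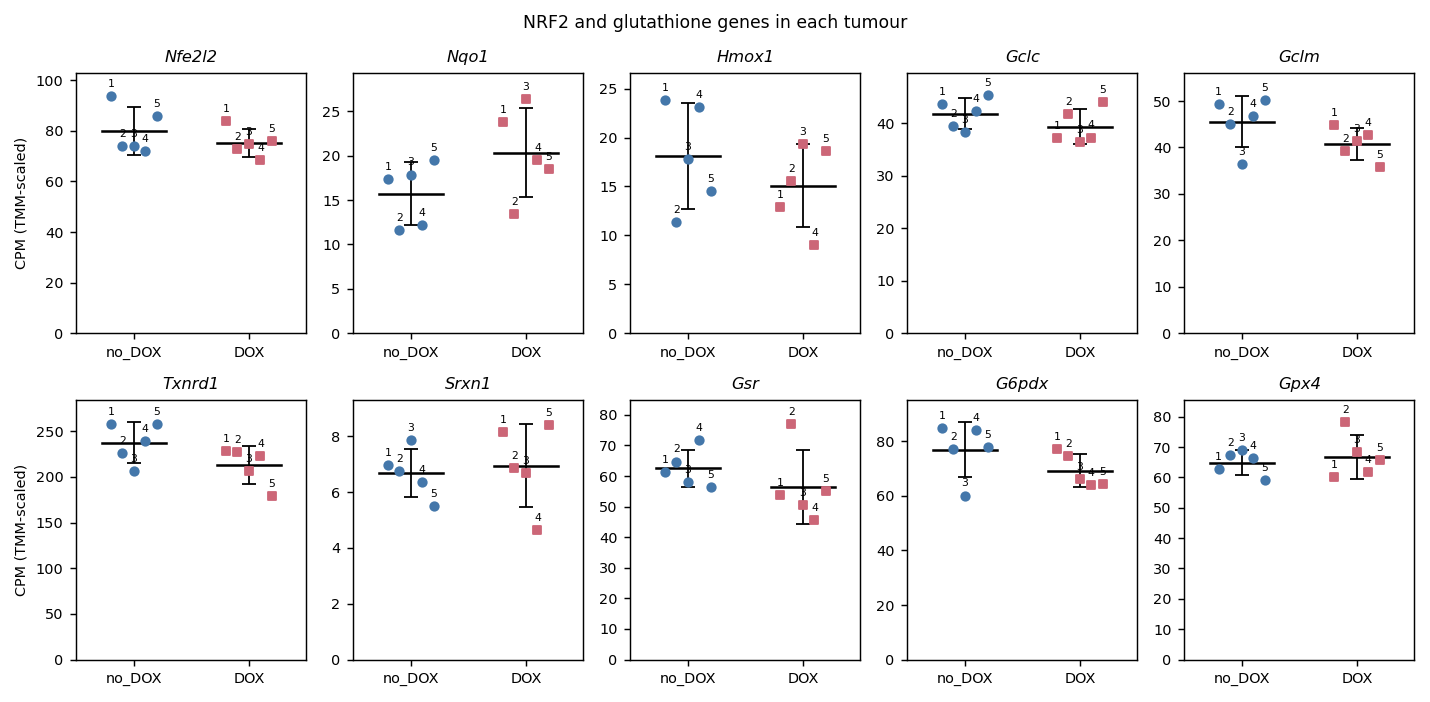
Level of each gene in each tumour in CPM (counts scaled to a common TMM-adjusted library size), with a linear axis from 0 for each gene; circles are the 5 no_DOX and squares the 5 DOX tumours, numbered by replicate, and bars give the mean and SD. The groups overlap for all 10 genes, and Gsr shows 4 DOX tumours under the controls and DOX 2 above them.

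Nfe2l2 itself (ENSMUSG00000015839.6, GRCm38 chromosome 2, 75675513 to 75704641, minus strand; positions of all members are whole genes in GENCODE M21) was at 93.8, 73.8, 73.9, 71.9 and 85.9 CPM in no_DOX tumours 1 to 5. In DOX tumours 1 to 5 it was at 83.7, 72.9, 74.9, 68.5 and 75.9 CPM. The DOX values lay inside or just under the control range, and no_DOX 1 held the highest level. The means were 79.9 ± 9.58 and 75.2 ± 5.56 CPM (SD, n = 5), a log2 fold change of -0.09 (SE 0.09, edgeR adjusted p = 0.627). Leaving out 1 tumour gave values from -0.02 without no_DOX 1 to -0.13 without DOX 1.

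Nqo1 (chr8:107388225-107403206, minus strand), encoding a quinone reductase that is a standard readout of NRF2, had the largest difference of the members and, with edgeR, the smallest p. By voom its unadjusted p was 0.0112, and those of Txnrd1 (0.0086) and Gclc (0.00985) were smaller. It was at 17.3, 11.7, 17.9, 12.2 and 19.5 CPM in no_DOX tumours 1 to 5 and at 23.8, 13.4, 26.4, 19.5 and 18.5 CPM in DOX tumours 1 to 5. Only DOX 1 and DOX 3 lay above every control, and DOX 2 lay among the lower controls. The means were 15.7 ± 3.54 and 20.3 ± 5.01 CPM (SD, n = 5), a log2 fold change of 0.37 (SE 0.20, 95% interval -0.07 to 0.81), with an edgeR unadjusted p of 0.0877 and an adjusted p of 0.376. Leaving out 1 tumour gave log2 fold changes from 0.26 without DOX 3 (edgeR adjusted p = 0.581) to 0.49 without DOX 2 (edgeR adjusted p = 0.17).

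Hmox1 (chr8:75093621-75100589, plus strand), encoding the inducible heme oxygenase, which opens the heme ring and releases iron, was the most variable member. It was at 23.9, 11.3, 17.8, 23.1 and 14.6 CPM in no_DOX tumours and at 12.9, 15.6, 19.4, 9.02 and 18.6 CPM in DOX tumours, replicates 1 to 5. DOX 4 alone lay under every control, and no DOX tumour reached the high levels of no_DOX 1 and no_DOX 4. The coefficient of variation was 29.8% in controls and 28.2% with doxycycline, where counting error alone gave a median of 5.76%. The log2 fold change was -0.26 (SE 0.24, edgeR adjusted p = 0.614), but 0.027 with voom. Leaving out 1 tumour gave values from -0.13 without DOX 4 and -0.14 without no_DOX 1 to -0.39 without no_DOX 2. Macrophages that clear heme are a known source of this transcript, and in bulk tumours fewer cells of a type and less RNA per cell cannot be told apart. The summed level of 14 macrophage and monocyte markers ran from 481 to 640 CPM in controls and from 468 to 676 CPM in DOX tumours. Of those markers 10 averaged at least 1 CPM, with 8 of the 10 tested higher in DOX tumours, while Marco, a scavenger receptor of some macrophages, averaged 0.0157 CPM with a count in 3 tumours, and the part of macrophages in the Hmox1 values was not tested.

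Glutathione is made by glutamate-cysteine ligase, with Gclc (chr9:77754535-77794485, plus strand) encoding the catalytic and Gclm (chr3:122245557-122270732, plus strand) the modifier subunit. Gclc was among the steadiest members, at 43.6, 39.4, 38.3, 42.3 and 45.4 CPM in no_DOX tumours and at 37.3, 41.7, 36.4, 37.3 and 44.0 CPM in DOX tumours, replicates 1 to 5. DOX 1, 3 and 4 lay under the lowest control and the other two among the controls, and the log2 fold change was -0.09 (SE 0.07, edgeR adjusted p = 0.564), from -0.06 without no_DOX 5 to -0.13 without DOX 5. Gclm was at 49.3, 45.1, 36.5, 46.7 and 50.3 CPM in no_DOX tumours and at 44.9, 39.2, 41.5, 42.7 and 35.9 CPM in DOX tumours. All DOX tumours were under 4 of the 5 controls, and no_DOX 3 lay near the lowest DOX value. The log2 fold change of Gclm was -0.16 (SE 0.09, 95% interval -0.37 to 0.05, edgeR adjusted p = 0.415), and from -0.12 without DOX 5 to -0.24 without no_DOX 3 (edgeR adjusted p = 0.13). Gclm shares 244 exon bases with the pseudogene Gm6061 on the same strand, which held 57 counts against 8618 for Gclm. It also shares 296 exon bases with Gm17494 on the opposite strand, which held 125 counts.

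Txnrd1 (chr10:82833951-82897712, plus strand) encodes the cytosolic thioredoxin reductase, which uses NADPH to keep thioredoxin reduced, and Srxn1 (chr2:152105516-152111376, plus strand) encodes sulfiredoxin, which repairs over-oxidised peroxiredoxins. Txnrd1 had the most reads of the members, 2962 to 8332 per tumour. It was at 258, 226, 206, 239 and 258 CPM in no_DOX tumours and at 228, 227, 207, 223 and 179 CPM in DOX tumours, replicates 1 to 5. DOX 5 alone lay under every control, and the log2 fold change was -0.16 (SE 0.09, 95% interval -0.35 to 0.03, edgeR adjusted p = 0.38), from -0.10 without DOX 5 to -0.21 without no_DOX 3. Srxn1 had the fewest reads, 65 to 270 per tumour. It was at 6.97, 6.75, 7.89, 6.37 and 5.52 CPM in no_DOX tumours and at 8.15, 6.85, 6.70, 4.65 and 8.39 CPM in DOX tumours, with means of 6.70 ± 0.864 and 6.95 ± 1.49 CPM (SD, n = 5). DOX 1 and DOX 5 were above every control and DOX 4 was under every control, and the log2 fold change was 0.06 (SE 0.16, edgeR adjusted p = 0.886).

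Gsr (chr8:33652523-33698163, plus strand) encodes glutathione reductase, which returns oxidised glutathione to its reduced form with NADPH, and G6pdx (chrX:74409483-74429194, minus strand) encodes glucose-6-phosphate dehydrogenase, the entry enzyme of the pentose phosphate pathway and a main source of that NADPH. Gsr was at 61.5, 64.8, 58.0, 71.8 and 56.5 CPM in no_DOX tumours and at 53.8, 77.1, 50.5, 45.5 and 55.0 CPM in DOX tumours, replicates 1 to 5. DOX 1, 3, 4 and 5 lay under every control and DOX 2 above every control. The log2 fold change was -0.15 (SE 0.13, edgeR adjusted p = 0.584) with all tumours. Leaving out 1 tumour gave values from -0.08 without DOX 4 (edgeR adjusted p = 0.773) to -0.29 without DOX 2 (edgeR unadjusted p = 0.00718, adjusted p = 0.13), and -0.10 without no_DOX 4. G6pdx was at 85.0, 77.3, 60.1, 84.2 and 77.9 CPM in no_DOX tumours and at 77.1, 74.5, 66.4, 64.0 and 64.2 CPM in DOX tumours. The DOX values lay under 4 of 5 controls and above no_DOX 3. The log2 fold change of G6pdx was -0.15 (SE 0.10, edgeR adjusted p = 0.448), and from -0.11 without no_DOX 1 to -0.23 without no_DOX 3 (edgeR adjusted p = 0.129). G6pdx shares 418 bases of exon with Ikbkg on the opposite strand, which held 7131 counts over the 10 tumours against 14517 for G6pdx. The strand setting of the counting is not given in the sources used here.

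Gpx4 (chr10:80047166-80056439, plus strand) encodes the glutathione peroxidase that reduces lipid hydroperoxides in membranes and so holds back ferroptosis, an iron-dependent form of cell death. It was at 62.8, 67.4, 68.9, 66.3 and 59.0 CPM in no_DOX tumours and at 59.98, 78.3, 68.4, 61.6 and 65.6 CPM in DOX tumours, replicates 1 to 5. DOX 2 held the highest level, as for Gsr, and the other DOX tumours lay within the control range. The log2 fold change was 0.04 (SE 0.08, 95% interval -0.13 to 0.22, edgeR adjusted p = 0.808), the smallest of the 10, and -0.026 without DOX 2. A processed copy, Gpx4-ps2, held 614 counts over the 10 tumours, so some reads of the gene could have been split between them.

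**Figure D2:**
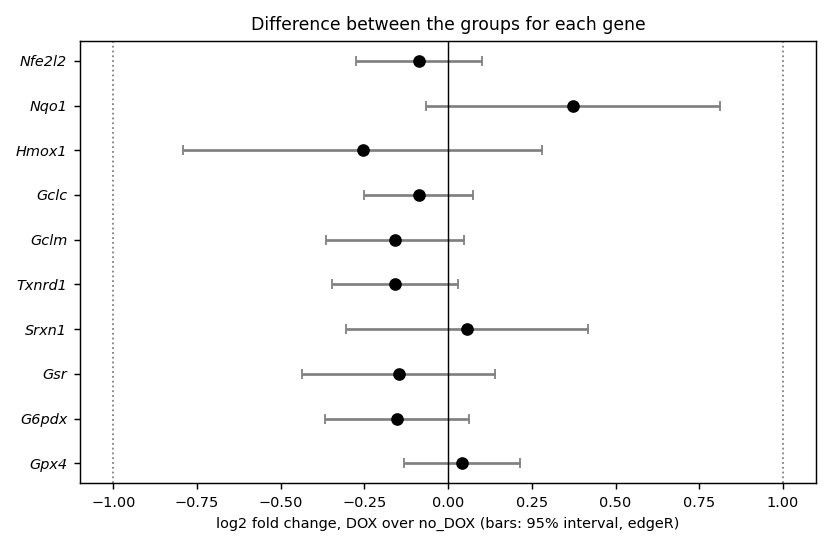
Fitted log2 fold change of each gene, DOX over no_DOX (5 tumours each), with its 95% interval from edgeR; dotted lines mark a 2-fold change. Every interval includes 0 and stays inside the dotted lines, from Hmox1 at -0.26 to Nqo1 at 0.37.

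Gpx4 and Txnrd1 are the selenoproteins of the set: each reads a TGA codon inside its coding sequence as selenocysteine. The codon is shown in capitals with its neighbouring coding bases, to mark the feature that ties both enzymes to selenium supply; in Txnrd1 a single codon separates it from the stop. Sephs2, which makes the selenium donor for selenocysteine, is described with the wider lists.
Gpx4 (transcript Gpx4-201, codon at chr10:80054737-80054739, plus strand): aacgtggcctcgcaaTGAggcaaaactgac
Txnrd1 (transcript Txnrd1-201, codon at chr10:82896037-82896039, plus strand): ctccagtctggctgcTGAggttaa

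Levels were ranked between genes as CPM per kilobase of annotated exon. In no_DOX tumours Gpx4 stood highest at 37.6 ± 2.31, followed by Txnrd1 at 33.5 ± 3.12, G6pdx at 24.97 ± 3.25, Gsr at 22.7 ± 2.21 and Nfe2l2 at 21.0 ± 2.52 CPM per kilobase (SD, n = 5). A lower set followed, with Gclc at 11.1 ± 0.775, Hmox1 at 10.4 ± 3.08, Nqo1 at 10.1 ± 2.28 and Gclm at 7.25 ± 0.873, and Srxn1 was lowest at 2.38 ± 0.306 CPM per kilobase (SD, n = 5). Neighbours in this order overlapped over the 10 tumours except at 2 steps, between Nfe2l2 and Gclc and between Gclm and Srxn1. In DOX tumours Nqo1, at 13.1 ± 3.22 CPM per kilobase, stood above Gclc at 10.4 ± 0.887 and Hmox1 at 8.62 ± 2.43 (SD, n = 5), with ranges that overlapped. Exon length was the union over all annotated isoforms, so a level on this scale depends on how much exon is annotated.

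Over the 10 tumours the members did not vary as one block. Of 45 pairs, 29 had a positive and 16 a negative Pearson correlation of log2(CPM + 1) after removal of the group means, with a median r of 0.12. The closest pair was Gclm and Txnrd1, with r = 0.86 (permutation p = 0.00276, adjusted over 45 pairs 0.124) and Spearman's rho = 0.83 (permutation p = 0.00486, adjusted 0.109). Both were low in no_DOX 3 and DOX 5, and without these 2 tumours r was 0.55. Within the groups r was 0.96 in no_DOX and 0.79 in DOX tumours, and pooled without removing group means it was 0.90 (permutation p adjusted 0.0153).

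G6pdx went with that pair, at r = 0.77 with Gclm (permutation p = 0.011, adjusted 0.162; rho = 0.60, p = 0.0729, adjusted 0.62) and r = 0.72 with Txnrd1 (permutation p = 0.0165, adjusted 0.162; rho = 0.71, p = 0.0262, adjusted 0.295). Without no_DOX 3 and DOX 5 r was 0.17 and 0.39. Leaving out the tumours farthest from the median narrows the range, which can itself lower r. Within the groups r with Gclm was 0.91 in no_DOX and 0.42 in DOX tumours, and r with Txnrd1 was 0.83 and 0.63. Nqo1 and Gsr varied in opposite directions, with r = -0.76 (permutation p = 0.00596, adjusted 0.134), rho = -0.78 (permutation p = 0.011, adjusted 0.165) and r = -0.55 without DOX 2 and no_DOX 2. Gsr and Gpx4 had r = 0.74 (permutation p = 0.018, adjusted 0.162) and rho = 0.53 (permutation p = 0.123, adjusted 0.62), and r was 0.26 without DOX 2 and DOX 4. Gclm and Gpx4 were opposed more in rank, with rho = -0.83 (permutation p = 0.00455, adjusted 0.109), than in r, at -0.57 (permutation p = 0.0884, adjusted 0.547), and without no_DOX 3 and DOX 5 r was -0.92. No pair passed after adjustment with group means removed, 0 of 45, and Nfe2l2 had r between -0.47 (Gpx4) and 0.53 (Nqo1) with the others.

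**Figure D3:**
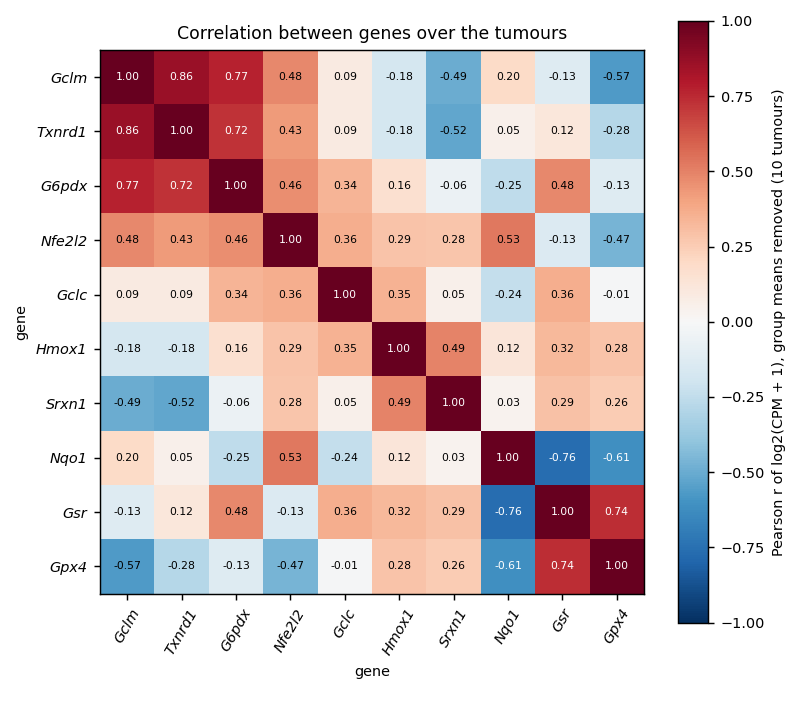
Pearson correlation of log2(CPM + 1) between each pair of genes over 10 tumours, with the mean of each group removed (red positive, blue negative, on a scale from -1 to 1). Gclm, Txnrd1 and G6pdx form a positive corner with r of 0.72 to 0.86, and Nqo1 is negative with Gsr at -0.76.

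Genes elsewhere in the table that tracked members most closely were named by Pearson's r of log2(CPM + 1) over the 10 tumours, among 10478 protein-coding genes of at least 5 CPM, as a description. Group means were not removed here. For Nqo1 they were Sike1 (r = 0.95, rho = 0.94), Trrap (0.94, 0.94) and Tmem229a (0.93, 0.75). For Hmox1 they were Pdcd2 (r = 0.91, rho = 0.79), Tmem158 (0.88, 0.83) and Lpin3 (0.87, 0.89). For Nfe2l2 they were Acat2 (r = 0.96, rho = 0.69), Mlkl (0.94, 0.87) and Msh3 (0.92, 0.92). Acat2 and Tmem229a thus followed less closely in rank. These are the highest of many correlations and carry no test.

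The wider pathway was read from 7 lists of 119 genes, of which 112 were tested, 46 higher and 66 lower in DOX tumours. With edgeR 0 of the 112 passed over all genes, and 20 (17.9%) had an unadjusted p under 0.05, close to the 16.0% of all tested genes. Of those 20, 17 were lower and 3 higher, against 7.83% of all tested genes that were lower and 8.20% that were higher at this threshold.

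**Figure D4:**
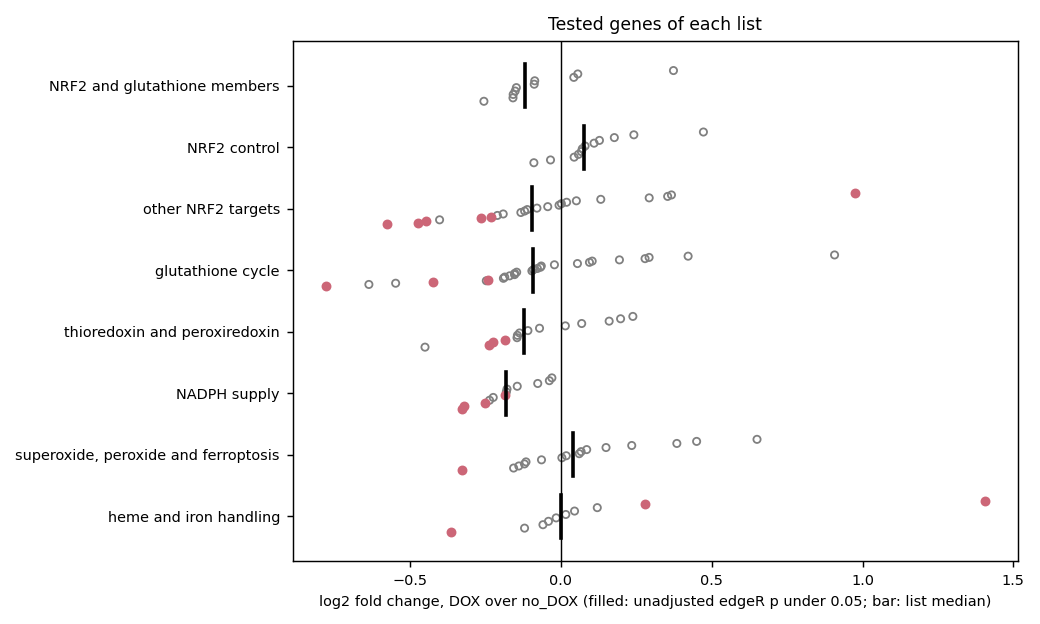
Log2 fold change, DOX over no_DOX, of every tested gene in the 10 members and the 7 wider lists; filled points have an unadjusted edgeR p under 0.05 and black bars are list medians. All 12 genes of the list named NADPH supply, which includes Tkt of the non-oxidative branch, lie below 0, with a median of -0.18. Lists were chosen with earlier results of these data known.

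Among 12 genes that control NRF2, 10 had a positive log2 fold change and 2 a negative one (median 0.08), where 49.5% of all tested genes had one below 0. None, 0 of 12, had an unadjusted edgeR p under 0.05, where 16.0% of all tested genes did. The list mixes genes that lower NRF2, such as Keap1 and Cul3, with genes that aid it, such as Sqstm1 and Maff. A shared sign therefore has no single meaning for NRF2. The smallest p-values were those of Sqstm1, encoding p62, which takes KEAP1 out of action, at 63.5 ± 11.7 (no_DOX) and 75.1 ± 4.86 CPM (DOX), and Maff, a small MAF partner, at 6.12 ± 2.31 and 8.47 ± 1.15 CPM (SD, n = 5; edgeR adjusted p = 0.321 and 0.34).

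Among 22 tested genes of 26 further NRF2 targets, 8 were higher and 14 lower (median -0.10), and 6 had an unadjusted edgeR p under 0.05. These 6 were 27.3% of the 22, against 16.0% of all tested genes. Ftl1, the ferritin light chain, which stores iron, was at 449, 433, 415, 492 and 417 CPM in no_DOX tumours and at 367, 357, 395, 371 and 347 CPM in DOX tumours, replicates 1 to 5. Every DOX tumour was under every control, as in 1.13% of all tested genes, with a log2 fold change of -0.26 (SE 0.06, edgeR adjusted p = 0.196). DESeq2 called it as lower (adjusted p = 0.0087), where it called 1.99% of all tested genes, and voom did not (adjusted p = 0.0585). Ferritin genes have near-identical processed copies, so its counts are uncertain. The glutathione transferase Gsta4 had a log2 fold change of -0.58 (SE 0.21), Gstm1 of -0.45 (SE 0.19) and the microsomal Mgst1 of -0.23 (SE 0.10). Osgin1, an oxidative-stress-induced growth inhibitor, was at -0.47 (SE 0.19). Among the 6 genes at an unadjusted p under 0.05 the carbonyl reductase gene Cbr3 was alone in being higher, at 0.97 (SE 0.35). It had a mean of 0.620 CPM in controls and 6 to 42 reads per tumour. EdgeR's adjusted p-values of these 5 genes lay between 0.246 and 0.303.

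In the glutathione cycle list 26 of 28 genes were tested, 8 higher and 18 lower (median -0.09), with 3 at an unadjusted edgeR p under 0.05, all lower. These 3 were 11.5% of the 26, against 16.0% of all tested genes in either direction and 7.83% that were lower. Gpx3, the secreted glutathione peroxidase, was at 25.2, 23.5, 27.6, 19.5 and 27.5 CPM in no_DOX tumours and at 13.9, 12.2, 17.1, 9.09 and 19.1 CPM in DOX tumours, replicates 1 to 5. Every DOX tumour was under every control, as in 1.13% of all tested genes, with DOX 5 (19.1) only just below no_DOX 4 (19.5). The level was 0.582-fold (log2 fold change -0.78, SE 0.18, edgeR adjusted p = 0.196). DESeq2 (adjusted p = 0.0105, where it called 1.99% of all tested genes) and voom (adjusted p = 0.0405, where it called 4.79%) called Gpx3 as lower. Connective-tissue transcripts moved beside it: the summed level of 8 fibroblast markers ran from 2090 to 4020 CPM in controls and from 801 to 1790 CPM in DOX tumours, with no overlap. That sum was mostly collagen, since Col1a1, Col1a2 and Col3a1 averaged 1140, 675 and 367 CPM. All 8 averaged at least 1 CPM and 7 were lower in DOX tumours, with log2 fold changes of -0.01 for Fap and 0.68 for Pdpn (edgeR adjusted p = 0.988 and 0.508). The part of stromal cells in the Gpx3 values was not tested. The transferase gene Gstm2 was under every control in all DOX tumours, as in 1.13% of all tested genes (log2 fold change -0.43, SE 0.14, edgeR adjusted p = 0.239). Gstz1 was at -0.24 (SE 0.11, edgeR adjusted p = 0.299). Gstm genes are a family of similar sequences, so reads may be split between them.

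In the list named NADPH supply 12 of 12 genes had a log2 fold change under 0 and the median was -0.18, where 49.5% of all tested genes were lower. The list was chosen with earlier results of these data known, so this shared sign is a description and carries no test. Besides enzymes that make NADPH it holds genes of the non-oxidative pentose phosphate branch, such as Tkt. Pgd, the other NADPH-producing enzyme of the pathway that G6pdx opens, was at 176.5, 151, 149, 168 and 175 CPM in no_DOX tumours and at 143, 124, 136, 124 and 129 CPM in DOX tumours, replicates 1 to 5. No DOX tumour reached the lowest control, as in 1.13% of all tested genes, and the log2 fold change was -0.32 (SE 0.07, 95% interval -0.47 to -0.17, edgeR adjusted p = 0.196). Tkt, the transketolase of the non-oxidative branch, was at 369, 358, 299.7, 386 and 372 CPM in no_DOX tumours and at 286, 316, 276, 260.1 and 286 CPM in DOX tumours. Among controls only no_DOX 3 overlapped the DOX tumours, and the log2 fold change was -0.33 (SE 0.08, edgeR adjusted p = 0.196).

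DESeq2 called Pgd and Tkt as lower (adjusted p = 0.00585 and 0.0171), and so did voom (0.0341 and 0.0295), while edgeR called Tkt without no_DOX 3 (adjusted p = 0.0465). Of all tested genes DESeq2 called 1.99% and voom 4.79%, and edgeR called 37 genes without no_DOX 3. Nadk, the kinase that makes NADP, had a log2 fold change of -0.19 (SE 0.07, edgeR adjusted p = 0.261). Mthfd1, a folate enzyme, was at -0.25 (SE 0.10, edgeR adjusted p = 0.263) and passed by voom (adjusted p = 0.0488). These 4 were the genes of the list at an unadjusted edgeR p under 0.05, 33.3% of the 12, against 16.0% of all tested genes. Without no_DOX 2, without DOX 5, without both no_DOX 4 and DOX 5, or with voom, 11 of 12 were lower. Among controls, no_DOX 3 had the lowest Tkt, Pgd, Gclm, Txnrd1 and G6pdx. Markers of cell types moved beside the list. Besides the 7 of 8 fibroblast genes, 5 of 6 endothelial genes were lower (3 at an unadjusted edgeR p under 0.05). The remaining endothelial gene, Vwf, was higher at that p, with a DESeq2 log2 fold change of 1.59. DESeq2 called Vwf as higher (adjusted p = 0.044) and voom did not (adjusted p = 0.0857). Basal and myoepithelial genes were higher in 8 of 8 (1 at that p). Luminal genes were higher in 7 of 8 (2 at that p) and lower in 1 (at that p). Of all tested genes, 8.20% were higher and 7.83% lower at that p. The endothelial sum ran from 89.5 to 118 CPM in controls and from 75.7 to 122 CPM in DOX tumours, and the basal sum from 60.3 to 283 and from 99.0 to 556 CPM. Their part in the values of the list was not tested.

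**Figure D5:**
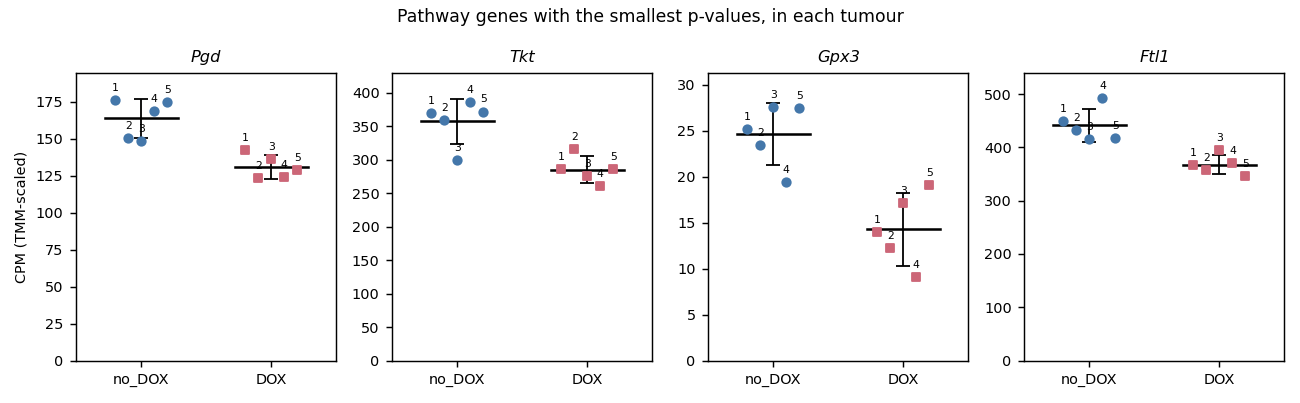
CPM (TMM-scaled, linear axes from 0) of Pgd, Tkt, Gpx3 and Ftl1 in the 5 no_DOX (circles) and 5 DOX (squares) tumours, numbered by replicate, with mean and SD. Every DOX tumour is under every control for Pgd, Gpx3 and Ftl1, as in 1.13% of all tested genes, and no_DOX 3 at 299.7 CPM lies among the DOX tumours for Tkt.

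Thioredoxin and peroxiredoxin genes were higher in 5 and lower in 9 of 14 (median -0.12), with 3 at an unadjusted edgeR p under 0.05, all of them lower. These 3 were 21.4% of the 14, against 16.0% of all tested genes in either direction and 7.83% that were lower. Txn2, the mitochondrial thioredoxin, had a log2 fold change of -0.19 (SE 0.06), and the peroxiredoxins Prdx6 and Prdx3 of -0.24 (SE 0.10) and -0.22 (SE 0.10), with edgeR adjusted p of 0.243 to 0.3. In the list for superoxide, peroxide and ferroptosis, 10 of 16 were higher and 6 lower (median 0.04). Sephs2 was at 95.1 ± 9.34 and 75.8 ± 11.6 CPM (SD, n = 5; log2 fold change -0.33, SE 0.10, edgeR adjusted p = 0.238), with DOX 2 among the controls. By voom Sephs2 passed as lower (adjusted p = 0.0345), where 4.79% of all tested genes passed. Acsl4, which loads membranes with the fatty acids that ferroptosis consumes, was at 215 ± 55.97 and 281 ± 53.4 CPM (SD, n = 5; edgeR adjusted p = 0.321).

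Heme and iron genes were evenly split, 5 higher and 5 lower of 10 tested (median 0.000156). Cd163, the macrophage receptor for haemoglobin bound to haptoglobin and also one of the macrophage markers above, was at 0.936 ± 0.627 and 2.45 ± 0.844 CPM (SD, n = 5; log2 fold change 1.41, SE 0.46, edgeR adjusted p = 0.239). By voom Cd163 passed as higher (adjusted p = 0.0428), where 4.79% of all tested genes passed. The iron transporter gene Slc11a2 had a log2 fold change of 0.28 (SE 0.12) and the folate and heme carrier gene Slc46a1 of -0.37 (SE 0.11), with edgeR adjusted p of 0.281 and 0.23. Hmox1, the enzyme between heme uptake and iron release, had the value given above.

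Total counts per tumour were 14256948 to 20469533, except 39358457 in DOX 3. Despite depletion, genes of ribosomal RNA or like it held 24.5% to 33.3% of these counts. The share was highest in no_DOX 3 (33.3%) and no_DOX 4 (33.2%), and its part in the values of these tumours was not tested. The epithelial genes Epcam, Krt8 and Krt18 averaged 276, 367 and 224 CPM with a count in all 10 tumours. They belong to 8 luminal markers, whose sum ran from 1360 to 1820 CPM in controls and from 1370 to 2000 CPM in DOX tumours. Of the 8, 7 were higher in DOX tumours, and Prom1 was called as higher by DESeq2 (adjusted p = 0.0344) and voom (adjusted p = 0.0343). These tools called 1.99% and 4.79% of all tested genes. Elf5 was lower, with a DESeq2 log2 fold change of -0.51 (adjusted p = 0.0751). The summed adipocyte markers were between 2.48 and 17.9 CPM. Mouse Hpn was at 21.7 ± 4.69 and 31.7 ± 8.55 CPM (SD, n = 5), a mean difference of 0.52 in log2(CPM + 1) (two-sided exact permutation p = 0.0159, the smallest possible being 0.00794), and edgeR gave an adjusted p of 0.247. The sources used here do not state the species of the construct's hepsin, so it is not known whether these counts include the induced transcript. Myc was at 433 ± 100.4 and 377 ± 88.1 CPM (SD, n = 5; edgeR adjusted p = 0.582).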

How the data were processed

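RNA of 10 tumours was depleted of ribosomal RNA and sequenced from directional libraries as single 75 bp reads, per the labels' protocols. The authors deposited raw read counts for each Ensembl identifier, as whole numbers without normalisation. Per the submitters' processing notes, the build was GRCm38 and the tools were STAR 2.6.0c and featureCounts, besides bcl2fastq, Trimmomatic and DESeq2, and the annotation release is not given in the sources used here. Symbols matched 55154 of 55335 identifiers, and positions and exon lengths came from GENCODE M21 (GRCm38). No 2 tumours of a group were alike within counting error (20 pairs, with a chi-square statistic of 6.76 to 41.9 for each degree of freedom). The labels do not say whether tumours came from separate hosts, so a p-value refers to the variation among these 10 tumours, which may be in part technical.

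Groups were tested with edgeR 4.0.16 in R 4.3.3 (TMM, filterByExpr with minimum count 10 and total 15, quasi-likelihood, Benjamini-Hochberg over 16167 genes, threshold 0.05), without a block, and the code was tested on simulated data. CPM used TMM-scaled library sizes. Alternatives included DESeq2 1.42.0 and limma 3.58.1 voom with sample weights. Correlations used 100000 permutations. Members and lists were chosen with earlier results of these data known. Named from each list were the genes with an unadjusted p under 0.05, at most 6, or, with fewer than 2 of these, the 2 of smallest p; every member, the 3 genes most like Nqo1, Hmox1 and Nfe2l2, Hpn and Myc were also named.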

Additional observations from a re-analysis of the deposited data

How the results depend on the processing

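No member passed edgeR's adjusted threshold under any setting run, DESeq2 and voom included, and 184 of 190 refits of a member kept its direction. The others were Hmox1 with voom (log2 fold change 0.027), Gpx4 without DOX 2 (-0.026) and Srxn1 without no_DOX 5 (-0.0074), without DOX 1 (-0.0069), without DOX 5 (-0.018) and without both no_DOX 4 and DOX 5 (-0.039), the last chosen after seeing the data. Leaving out 1 tumour gave log2 fold changes of -0.018 to 0.16 for Srxn1 and -0.026 to 0.079 for Gpx4. Over all genes edgeR called 0, DESeq2 322 and voom 775, and voom weighted DOX 3 at 4.65 against 0.465 to 1.89 elsewhere. With voom 6 members had an unadjusted p under 0.05 (27.2% of all genes did). Leaving out 1 tumour gave 0 to 37 calls over all genes (37 without no_DOX 3, 2 without DOX 2) and 0 to 3 members at an unadjusted p under 0.05 (3 without no_DOX 3, 2 without DOX 2). A replicate block gave 7 calls and 1 member, Nqo1, at an unadjusted p of 0.0191 (adjusted 0.231); same-numbered tumours had deviations correlated at 0.06 to 0.32, and 2 of 5 controls correlated best with their own number, so the numbers were not taken as pairs. Library size in place of TMM gave 1 passing pair of members, as did pooling the groups. Library size moved the share of higher genes at an unadjusted p under 0.05 from 51.2% to 67.8%, with 0 calls. The Hpn difference was 0.38 to 0.60 without 1 tumour, with exact permutation p up to 0.0317. Srxn1, on 65 to 270 reads, is the member that depth limits most.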
